A study of Mus musculus with 4 samples.

Results

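The 10 genes described here encode the receptor chains for interferons and for the gp130 family of cytokines, and the kinases attached to them: Ifnar1 and Ifnar2, Ifngr1 and Ifngr2, Il6st, Osmr and Lifr, and Jak1, Jak2 and Tyk2. They were measured in mouse embryonic fibroblasts (MEFs), cultured cells derived from mouse embryos, of the C57BL/6 strain, described in the labels as a MEF cell line. The groups were STAT3KO cells given IFNa at 1000 U per ml for 2 h, STAT3KO cells without IFNa, WT cells given the same IFNa treatment and WT cells without IFNa, with 1 Illumina bead array each, so no group had a replicate. Every probe whose gene symbol in the platform's table is 1 of the 10 names was taken, which gave 21 probes of 46632 on the array. The labels do not say which part of Stat3 was deleted, or whether a genotype was more than 1 line, so an effect of the knockout and a difference between lines cannot be told apart. The 4 arrays share a chip and differ in position on it, so position and group cannot be told apart either.

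Type I interferons such as IFNa bind a receptor made of IFNAR1 and IFNAR2, whose tails carry the kinases TYK2 and JAK1. Type II interferon binds IFNGR1 and IFNGR2, which carry JAK1 and JAK2. Cytokines of the interleukin-6 family signal through gp130, the product of Il6st, alone or paired with LIFR or OSMR, and these chains activate STAT3 through JAK1, JAK2 and TYK2. Fibroblasts are known to respond to interferons and to oncostatin M, the ligand of OSMR.

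Arrays are compared by normalized log2 intensity, a measure of brightness per probe that orders samples for a probe but does not rank different genes against each other. A probe was called detected on an array at a detection p, taken as 1 minus the deposited detection score, under 0.01. The arrays detected 16076 to 17524 probes each. Stat3 itself had log2 intensities of 6.16 to 6.60 on its 2 probes in STAT3KO cells, against 10.46 to 11.01 in WT cells, and was still detected on all 4 arrays. Of the fibroblast marker list, 9 of 11 tested genes were lower in STAT3KO cells and none higher (limma, all probes adjusted together). For scale, a limma fit with 1 probe a gene called 2085 of 10515 genes lower and 2423 higher, or 42.9% in either direction. Thy1, a surface glycoprotein of fibroblasts, was not detected in STAT3KO cells. Col1a2, a chain of type I collagen, was not detected in STAT3KO cells with IFNa and was at least 88.9-fold lower there than in WT cells with IFNa, and 70.0-fold lower without IFNa. The matrix proteoglycan gene Dcn was at -5.04 ± 0.18 and the transcription factor gene Twist2 at -4.14 ± 0.13 in the log2 genotype difference (limma SE, adjusted p = 8.51e-166 and 3.86e-211). Vim, an intermediate filament of mesenchymal cells, was at 15.26 and 15.11 in STAT3KO cells, against 15.12 and 15.29 in WT cells.

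The widest genotype difference was in Osmr. Its only detected probe was bright on both WT arrays and at background on both STAT3KO arrays. Ifnar2 was about 1 log2 unit lower in STAT3KO cells on its detected probe. The brighter Tyk2 probe was detected in STAT3KO cells alone, at least 1.71-fold higher with IFNa and at least 1.80-fold higher without it. Whether either passed the test depended on the processing, and the other Tyk2 probe did not pass. The measured probes of Il6st, Ifngr1, Ifngr2, Jak1 and Jak2 did not pass the test. The mean difference of STAT3KO over WT across both treatments was tested with limma for every probe detected on at least 1 array. Of the 11 such member probes, from 8 genes, 2 were lower and 1 was higher at an adjusted p under 0.05, against 17.0% lower and 18.8% higher of all 19656 probes tested. That is 3 of 11 against 35.8% called in either direction, and 11 probes are too few to set these shares apart. The median difference was -0.09 on the log2 scale over the 11 probes and 0.003 over all tested probes. Osmr and the brighter Tyk2 probe were detected in 1 genotype alone, so each entered the test only through the genotype where it was higher. Among probes detected on all 4 arrays, Ifnar2 alone of 7 member probes was called, against 41.1% of 13884 probes (limma).

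No probe was detected for 2 of the 10 genes, and 10 of the 21 probes were detected on no array. Of the others, 7 were detected on all 4 arrays and 4 on 1 to 3 of them. The plot of all probes by array shows these levels.

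**Figure D1:**
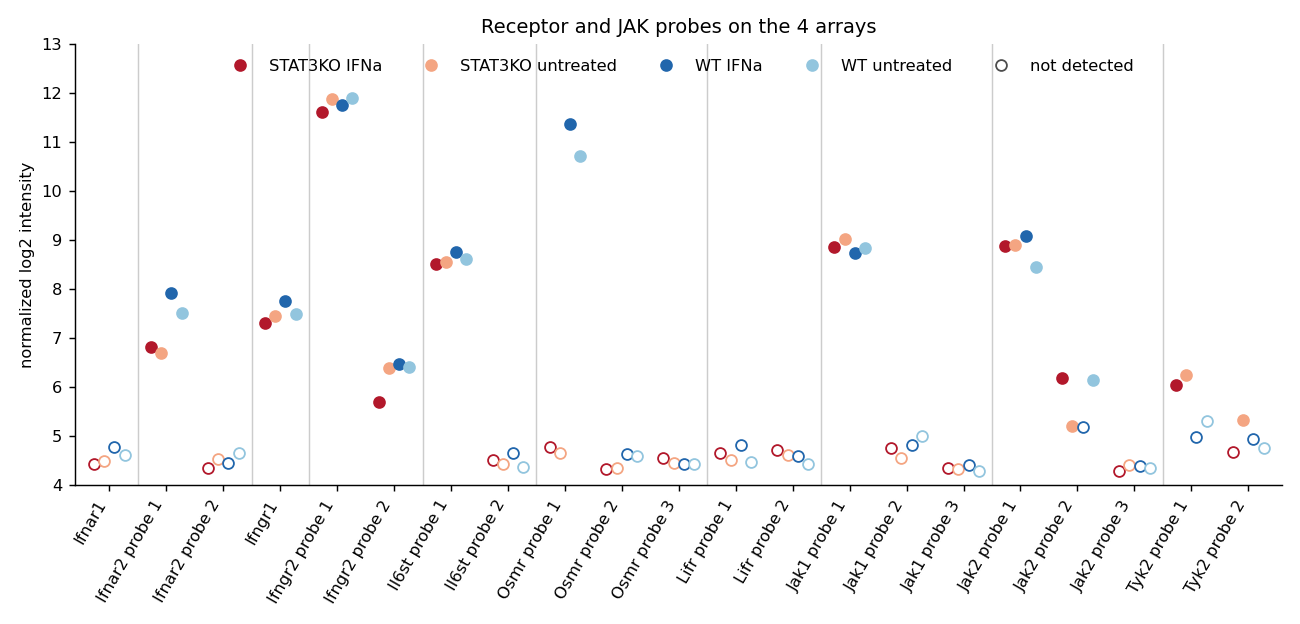
Normalized log2 intensity of the 21 probes on the 4 arrays, 1 point an array, with filled points where the probe was detected and open points where it was not; probes of a gene are numbered from the brightest. Osmr probe 1 stands at 11.37 and 10.71 in WT cells and at background in STAT3KO cells, while Il6st, Jak1 and Ifngr2 probe 1 lie close together on all arrays.

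The promoters of the 3 genes that passed the genotype test are shown here because the values below turn on these genes. They are the 250 bases before each gene's start, 5′ to 3′ on the gene's own strand, from RefSeq, build GRCm38.p6, with capitals marking the motifs found. The motifs searched, on both strands, were the STAT site with letters TTCNNNGAA, and the interferon-stimulated element, which is GAAA followed by any 2 bases and then GAAA again. The AP-1 site was searched as TGANTCA, the GC box as GGGCGG, the CCAAT box by its name's letters and the TATA box as TATAAA. Matches were counted separately for each motif.
Osmr promoter, chr15:6874314-6874563, minus strand: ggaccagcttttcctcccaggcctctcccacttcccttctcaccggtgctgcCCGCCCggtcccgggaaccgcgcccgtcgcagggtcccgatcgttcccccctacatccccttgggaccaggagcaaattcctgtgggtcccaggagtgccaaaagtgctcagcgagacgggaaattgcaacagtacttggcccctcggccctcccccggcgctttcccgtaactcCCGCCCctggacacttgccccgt
Ifnar2 promoter, chr16:91372533-91372782, plus strand: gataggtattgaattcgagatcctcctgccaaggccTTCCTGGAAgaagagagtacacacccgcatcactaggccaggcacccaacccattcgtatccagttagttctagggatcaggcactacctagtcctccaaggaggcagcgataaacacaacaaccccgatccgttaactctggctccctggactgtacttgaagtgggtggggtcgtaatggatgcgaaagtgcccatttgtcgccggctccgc
Tyk2 promoter, chr9:21131276-21131525, minus strand: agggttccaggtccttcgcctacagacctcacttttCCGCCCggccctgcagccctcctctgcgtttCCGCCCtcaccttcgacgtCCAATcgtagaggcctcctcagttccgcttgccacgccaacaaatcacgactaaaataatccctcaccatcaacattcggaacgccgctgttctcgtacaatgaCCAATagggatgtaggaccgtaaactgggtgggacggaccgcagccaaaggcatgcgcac
The Osmr window holds GC boxes alone (capitals), and the Tyk2 window holds GC boxes and CCAAT boxes. The Ifnar2 window holds the STAT site, with its first base 214 bases before the start (-214), and no other motif of those searched. All 10 genes matched the promoter table, with 11 entries because Lifr has 2 starts there. The STAT site occurred in 1 of the 11 member windows and in 7.0% of 32851 windows of that length. The interferon-stimulated element occurred in 0 of 11 and in 3.0%, the AP-1 site in 0 of 11 and in 6.7%, and the TATA box in 0 of 11 and in 12.4%. The GC box occurred in 9 of 11 member windows against 32.7%, and CCAAT in 6 of 11 against 33.8%. A match describes these letters only.

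Among the type I receptor genes, Ifnar2 was the measured chain. Its brighter probe had log2 intensities of 6.81 in STAT3KO cells with IFNa and 6.69 without it, against 7.91 in WT cells with IFNa and 7.52 without it. Both STAT3KO arrays lay below both WT arrays. The probe was 2.15-fold lower in STAT3KO cells with IFNa and 1.78-fold lower without it, and the mean difference was -0.97 ± 0.27 on the log2 scale (limma SE, 2 arrays per genotype, adjusted p = 0.00144). With arrays scaled to the 75th percentile this was -0.91 with an adjusted p of 0.0723 (limma), so the call was lost. Over 11 alternative ways of processing the difference ran from -0.97 to -0.56, so its size depended on the processing. The other Ifnar2 probe was not detected, with detection scores of 0.0890 and 0.595 in STAT3KO cells with and without IFNa, against 0.368 and 0.729 in WT cells with and without it.

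The single Ifnar1 probe, for the other chain of the receptor that binds IFNa, was detected on no array. Its detection scores were 0.317 and 0.495 in STAT3KO cells with and without IFNa, against 0.830 and 0.672 in WT cells with and without it. Cells of both genotypes responded to IFNa: Irf9, the DNA-binding subunit of the interferon-activated factor ISGF3, was 9.77-fold higher with IFNa in STAT3KO cells and 11.6-fold higher in WT cells.

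Of the type II receptor, Ifngr1, the ligand-binding chain, had log2 intensities of 7.30 and 7.44 in STAT3KO cells with and without IFNa, against 7.75 and 7.49 in WT cells with and without it. The STAT3KO arrays lay just below the WT arrays, and the mean difference of -0.25 ± 0.25 did not pass the test (limma SE, adjusted p = 0.50). Ifngr2, the signalling chain that carries JAK2, was bright on its first probe, with 11.60 and 11.88 in STAT3KO cells with and without IFNa, against 11.76 and 11.91 in WT cells with and without it. The arrays of the genotypes overlapped, with a mean difference of -0.09 ± 0.13 (limma SE, adjusted p = 0.670). Its second probe was dim, with 5.69 and 6.39 in STAT3KO cells with and without IFNa, against 6.47 and 6.40 in WT cells with and without it. Here the STAT3KO array with IFNa alone stood lower, and the mean difference was -0.40 ± 0.36 (limma SE, adjusted p = 0.449).

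Ifnar2, Il10rb, Ifnar1 and Ifngr2 are consecutive protein-coding genes on chromosome 16 in the RefSeq annotation. Il10rb encodes a chain shared by the receptors for interleukin-10 and type III interferons. Its brighter probe had log2 intensities of 9.07 and 9.42 in STAT3KO cells with and without IFNa, against 8.54 and 8.77 in WT cells with and without it. It was higher in STAT3KO cells, by 0.59 ± 0.16 (limma SE, adjusted p = 0.00125), while its other probe was at -0.09 (adjusted p = 0.911). Within this cluster the mean differences of the brighter probes were thus -0.97 for Ifnar2, 0.59 for Il10rb and -0.09 for Ifngr2 on the log2 scale.

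Of the gp130 family, Il6st, the chain shared by all its members, did not pass the genotype test. Its brighter probe had log2 intensities of 8.52 and 8.55 in STAT3KO cells with and without IFNa, against 8.75 and 8.61 in WT cells with and without it. The STAT3KO arrays were the lower ones, by a mean of -0.15 ± 0.18 (limma SE, adjusted p = 0.607). Its other probe was not detected, with scores from 0.157 to 0.725 over the 4 arrays.

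Osmr, the chain that pairs with gp130 to bind oncostatin M, had log2 intensities of 4.77 and 4.64 in STAT3KO cells with and without IFNa, against 11.37 and 10.71 in WT cells with and without it. In the authors' normalized values the same probe read 75.7 and 72.6 in STAT3KO cells, against 1725 and 1092 in WT cells. Its detection scores were 0.823 and 0.753 in STAT3KO cells and 1 on both WT arrays, so no level was measured in STAT3KO cells. Osmr was at least 63.0-fold lower in STAT3KO cells with IFNa and at least 46.5-fold lower without it, taking the lowest detected brightness of the STAT3KO array as the bound.

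The fitted mean difference of Osmr was -6.33 ± 0.22 (limma SE, adjusted p = 6.96e-177), and its adjusted p was 0.00198 without the intensity trend in the variance. The difference is not a bound, and its size depended on the processing: it was -4.68 when background was left uncorrected and -4.21 in the authors' normalized values. The other Osmr probes, which the platform's table ties to other transcript records, were not detected. The scores of the first were 0.0552 and 0.112 in STAT3KO cells with and without IFNa, against 0.708 and 0.660 in WT cells. Those of the second were 0.586 and 0.384 in STAT3KO cells, against 0.305 and 0.335 in WT cells.

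Of the 11 tested fibroblast marker genes, 9 were lower in STAT3KO cells, as Osmr was. Twist1, at -0.19 on the log2 scale, and Vim, at -0.02, did not pass the limma test, and Lum was detected on no array. The summed log2 intensities of all 12 markers were 92.9 to 95.1 on the STAT3KO arrays, against 132.0 to 133.4 on the WT arrays, and Thy1 was not detected in STAT3KO cells. The part of these markers in the Osmr result was not tested. Fewer cells of a type and less RNA per cell cannot be told apart in such bulk samples. Of the haematopoietic markers Ptprc, Adgre1 and Itgam were detected on no array, and the epithelial markers Epcam and Cdh1, the endothelial markers Pecam1 and Tek, all 3 muscle markers and the neural marker Sox10 were not detected either. Detected markers of these lists were Cd14, Kdr and Tubb3 on all 4 arrays, Krt8 in STAT3KO untreated alone, Krt18 in WT untreated alone and Cdh5 in WT IFNa alone. Cd14, of myeloid cells, had log2 intensities of 7.90 and 8.01 in STAT3KO cells with and without IFNa, against 7.71 and 7.67 in WT cells. None of these 6 passed the genotype test (limma). The summed log2 intensities of these lists in STAT3KO cells, against WT cells, were 21.3 to 21.9 against 21.4 to 21.7 for haematopoietic, 19.5 to 19.9 against 18.1 to 19.4 for epithelial and 19.7 to 20.9 against 20.3 to 21.0 for endothelial markers. They were 13.2 to 14.0 against 13.8 to 14.0 for muscle and 10.1 to 10.6 against 10.2 to 10.7 for neural markers.

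Lifr, the receptor chain for leukaemia inhibitory factor and the neighbour of Osmr on chromosome 15, was not detected on any array by its 2 probes. The scores of the brighter probe were 0.739 and 0.547 in STAT3KO cells with and without IFNa, against 0.858 and 0.422 in WT cells. Those of the other were 0.784 and 0.711 in STAT3KO cells, against 0.665 and 0.303 in WT cells. No fold is given for it.

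Among the kinases, Jak1, which serves the interferon and gp130 receptors alike, had log2 intensities of 8.85 and 9.02 in STAT3KO cells with and without IFNa, against 8.73 and 8.84 in WT cells with and without it. The lower STAT3KO array and the higher WT array nearly coincided, and the mean difference was 0.14 ± 0.17 (limma SE, adjusted p = 0.581). Its other probes were not detected, with scores of 0.631 to 0.914 for the one and 0.0271 to 0.249 for the other over the 4 arrays.

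Jak2, which serves the type II interferon receptor and also gp130, had on its brightest probe log2 intensities of 8.88 and 8.89 in STAT3KO cells with and without IFNa, against 9.08 and 8.45 in WT cells with and without it. The WT arrays lay on either side of the STAT3KO ones, and the mean difference was 0.12 ± 0.17 (limma SE, adjusted p = 0.659). The second probe was dim and crossed over. It had 6.19 and 5.21 in STAT3KO cells with and without IFNa, against 5.18 and 6.13 in WT cells with and without it, with a detection score of 0.977 in WT cells with IFNa, where it was not detected. Its mean difference was 0.05 ± 0.40 (limma SE, adjusted p = 0.957), and the third probe was not detected, with scores of 0.0162 to 0.311.

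Tyk2, the kinase bound to IFNAR1, was the member higher in STAT3KO cells. Its brighter probe had log2 intensities of 6.04 and 6.24 in STAT3KO cells with and without IFNa, against 4.99 and 5.30 in WT cells with and without it. It was detected on both STAT3KO arrays, and on neither WT array, where its detection scores were 0.928 with IFNa and 0.975 without it. It was at least 1.71-fold higher in STAT3KO cells with IFNa and at least 1.80-fold higher without it, with a fitted mean difference of 0.999 ± 0.40 (limma SE, adjusted p = 0.0361). This call was lost with no background correction (0.45, adjusted p = 0.0508), with scaling to the 75th percentile (0.98, adjusted p = 0.0630) and with cyclic loess (1.02, adjusted p = 0.0503), all by limma. The other probe was detected in STAT3KO cells without IFNa alone, with a fitted difference of 0.16 ± 0.43 (limma SE, adjusted p = 0.85). Its scores were 0.749 and 1 in STAT3KO cells with and without IFNa, against 0.909 and 0.813 in WT cells.

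**Figure D2:**
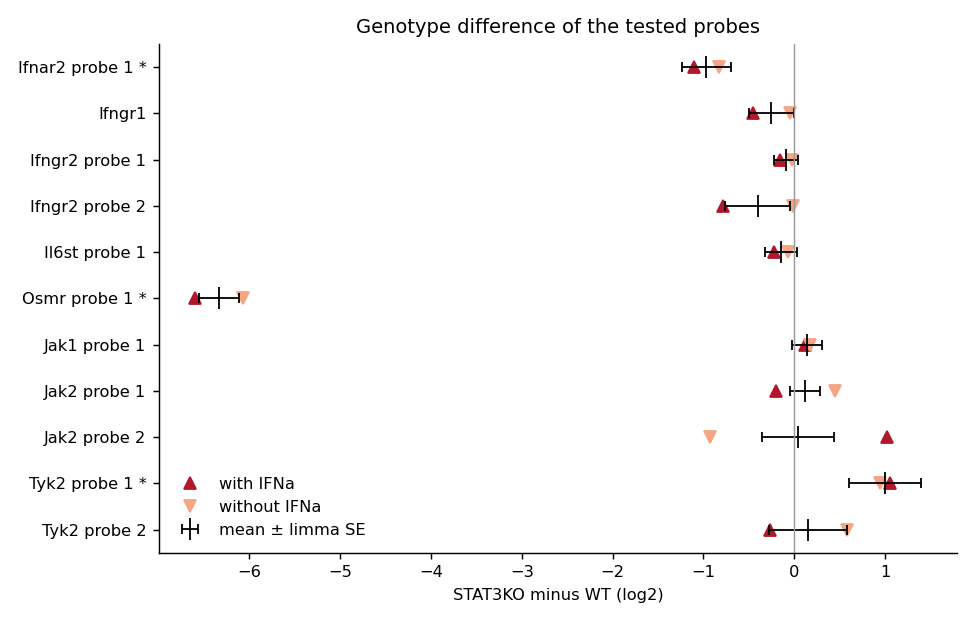
Difference of STAT3KO minus WT on the log2 scale for the 11 tested probes, with IFNa (upward triangles) and without it (downward triangles), and the mean with its limma SE as a bar; an asterisk marks an adjusted p under 0.05. Osmr stands alone at -6.33, Ifnar2 is at -0.97 and Tyk2 at 0.999, and the triangles of Jak2 probe 2 lie on opposite sides of 0.

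Between single arrays, differences of at least 2-fold were counted over probes detected on at least 1 of the arrays compared, with no test. With IFNa, 2 of 10 member probes were that much lower in STAT3KO than in WT cells (Osmr and Ifnar2), against 10.4% of all probes. The brighter Tyk2 probe and the second Jak2 probe were counted as higher by their normalized values, 2 of 10 against 9.17%. Neither was detected in WT cells with IFNa, and their bounds were at least 1.71-fold for Tyk2 and at least 1.89-fold for Jak2, so a 2-fold difference was not shown for them. Without IFNa, Osmr was the 1 lower probe of 11, against 9.34% of all probes, and none was higher, against 11.9%. Counted in this way in either direction it was 4 of 10 with IFNa, against 19.6% of all probes, and 1 of 11 without it, against 21.3%. With IFNa, Osmr alone was left with no background correction, with offset 50 and with the authors' normalized values, and Osmr and Ifnar2 with cyclic loess.

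The other question was whether the receptor and kinase genes themselves respond to IFNa within 2 h. In the limma test of the mean response over both genotypes, 0 of 11 member probes passed in either direction, against 0.809% higher, 0.219% lower and 1.03% in all of the 19656 tested, and 0 had an unadjusted p under 0.05. With cyclic loess Osmr passed, at 0.87 and an adjusted p of 0.0187 (limma). The median response was 0.02 on the log2 scale over the 11 probes and -0.01 over all. At 2-fold, 0 of 10 member probes differed with IFNa in STAT3KO cells, against 1.31% higher, 0.938% lower and 2.24% in all of 18223 probes. In WT cells it was 0 of 9, against 0.986% higher, 0.380% lower and 1.37% in all of 17639 probes.

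Several member probes were nonetheless higher with IFNa on the WT arrays, with no test. Osmr was 1.58-fold higher with IFNa in WT cells, Jak2 on its brightest probe 1.55-fold, Ifnar2 1.31-fold and Ifngr1 1.20-fold. In STAT3KO cells the log2 responses were -0.01 for Jak2, 0.12 for Ifnar2 and -0.14 for Ifngr1, and Osmr was not detected. For scale, the central 95% of the 13884 probes detected on all arrays had WT responses between -0.70 and 0.60 on the log2 scale, and Jak2, 1 of these probes, lay just above that range at 0.64. Over all 19656 tested probes the central 95% ran from -0.76 to 0.76, which holds the 0.66 of Osmr and the value of Jak2. The fitted mean responses were 0.39 ± 0.22 for Osmr and 0.31 ± 0.17 for Jak2, with limma adjusted p-values of 1.

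The remaining members gave these values. The log2 responses of Il6st were -0.03 in STAT3KO and 0.14 in WT cells, those of Jak1 were -0.16 in STAT3KO and -0.11 in WT cells, and those of the bright Ifngr2 probe were -0.28 in STAT3KO and -0.14 in WT cells. The log2 response of the brighter Tyk2 probe was -0.20 in STAT3KO cells, and in WT cells it was not detected on either array. The dim Ifngr2 probe was 1.63-fold lower with IFNa in STAT3KO cells and 1.05-fold higher in WT cells. The second Jak2 probe was 1.98-fold higher with IFNa in STAT3KO cells and at least 1.81-fold lower in WT cells, opposite to the brightest Jak2 probe in WT cells, so the probes of Jak2 disagree.

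The response was smaller, or more negative, in STAT3KO than in WT cells for all 7 member probes detected on all 4 arrays. The difference of responses ran from -0.77 to -0.05 on the log2 scale, with a median of -0.27, against a median of -0.03 over all 13884 such probes, of which 46.5% were positive. It cannot be tested, since 1 array a group leaves no residual, and the probes share the same 4 arrays. All 7 were also below 0 with no background correction, offset 50, scaling to the 75th percentile, cyclic loess and the authors' normalized values. In these settings the median over all tested probes was below 0 too, at -0.05, -0.06, -0.29, -0.16 and -0.05 in that order. The settings reuse the same 4 arrays, and 2 of the 7 probes are of Ifngr2, so this is no further support. Over all 11 tested probes 2 were positive, against 42.7% of all tested probes: the second Jak2 probe at 1.94 and the brighter Tyk2 probe at 0.12, both with values at background among their arrays.

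**Figure D3:**
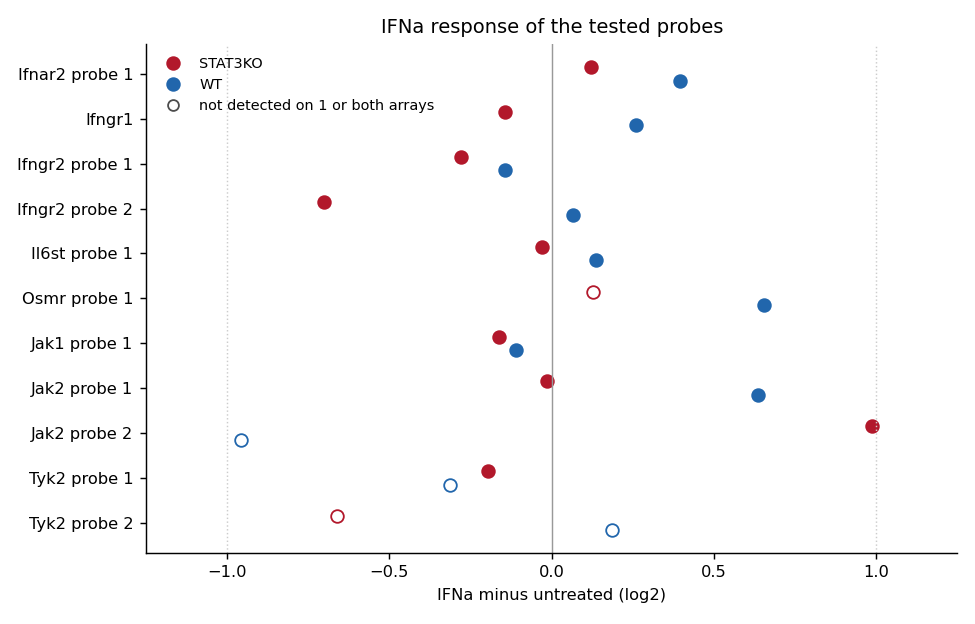
IFNa minus untreated on the log2 scale for the 11 tested probes in STAT3KO and WT cells, 1 difference of 2 arrays a point, with open points where an array did not detect the probe and dotted lines at 2-fold. In WT cells Osmr and Jak2 probe 1 reach 0.66 and 0.64, and no point passes 2-fold.

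Ifnar2 had the largest genotype difference among member probes detected on all 4 arrays. The genes whose profile over the 4 arrays was most like it, by Euclidean distance between centred log2 values among 10756 probes of named genes, were Lin54 at 0.0795, Gpc4 at 0.0868 and Smim7 at 0.0977 log2 units. Lin54, for example, had 8.13 and 7.98 in STAT3KO cells with and without IFNa, against 9.20 and 8.73 in WT cells. With 4 arrays this is a description of shape alone.

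The ligands of these receptors, counted with 1 probe a gene, differed by genotype in both directions. Of 15 ligand genes with a probe, 7 were detected on at least 1 array, and of those 2 were lower and 2 higher in STAT3KO cells (limma), with a median difference of 0.15 on the log2 scale. For scale, in a separate limma fit with 1 probe a gene, 42.9% of 10515 detected genes passed the genotype test in either direction. Their median was 0.02, and 1.09% passed the test of the IFNa response. The list counts come instead from the fit of all 19656 probes, where 35.8% passed the genotype test and 1.03% that of IFNa. The lower ligands were Il6, which signals through gp130, and Lif, the ligand of LIFR (limma adjusted p = 3e-31 and 4.97e-29). Il6 was 6.17-fold lower in STAT3KO cells with IFNa and at least 9.03-fold lower without it, and Lif was at -1.94 ± 0.17 (limma SE). The higher ones were Il11 at 1.80 ± 0.31 and Ctf1, which encodes cardiotrophin-1, at 1.64 ± 0.23, both ligands of gp130 complexes (limma adjusted p = 8.51e-08 and 1.37e-11). Osm, the ligand of OSMR, was detected on 2 arrays and had a difference of 0.04 (adjusted p = 0.969). With IFNa, Il6 alone of the 7 rose, at least 3.18-fold in STAT3KO cells and 2.17-fold in WT cells (limma adjusted p = 1.84e-07). Ifnb1, Ifna2, Ifna4, Ifng, Cntf, Clcf1, Il27 and Ebi3 were not detected. Of the interferon genes, Ifnz was detected on all 4 arrays and Ifna1 in STAT3KO cells without IFNa alone. Neither passed the genotype test (limma adjusted p = 0.839 for Ifnz and 0.578 for Ifna1).

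Of 29 other cytokine receptor genes that use these kinases, 16 were detected. Of these, 4 were lower and 4 higher in STAT3KO cells, with a median difference of -0.10. That is 8 of 16, against 42.9% of all genes in the separate fit with 1 probe a gene. Ghr, the growth hormone receptor, was the lowest at -2.30 ± 0.13 (limma SE, adjusted p = 5.51e-64), and Il4ra, a chain of the interleukin-4 receptor, was at -1.17 ± 0.25 (adjusted p = 1.48e-05). Il12rb1, a chain of the interleukin-12 receptor, was not detected in WT cells on its brighter probe and was at least 5.54-fold higher in STAT3KO cells with IFNa and at least 3.94-fold higher without it (limma adjusted p = 1.12e-10), while its other probe differed by -0.10 on the log2 scale. Il15ra, the interleukin-15 receptor chain, was 4.21-fold higher in STAT3KO cells with IFNa and at least 3.01-fold higher without it, where WT cells did not show it above background (limma adjusted p = 1.40e-08). Il3ra, the interleukin-3 receptor chain, was at 1.499 ± 0.22 (adjusted p = 4.1e-11). Il6ra, the chain that binds interleukin-6 before gp130, was at 0.55 ± 0.28 and did not pass (limma adjusted p = 0.130). Il15ra alone of the 16 rose with IFNa on its brightest probe, 2.45-fold in STAT3KO cells and at least 1.75-fold in WT cells (limma adjusted p = 0.0319). Its next brightest probe had a mean log2 response of 0.82 and did not pass (limma adjusted p = 0.965). The other tested Il15ra probes, at 0.39 and 0.01, did not pass either.

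Of 20 other genes of the JAK and STAT pathway with a probe, 17 were detected. Of these, 5 were higher and 3 lower in STAT3KO cells, with a median of -0.08. That is 8 of 17, against 42.9% of all genes in the separate fit with 1 probe a gene. Ptpn6, a phosphatase known mainly from blood cells that dephosphorylates JAKs, was at least 27.6-fold higher in STAT3KO cells with IFNa and at least 22.0-fold higher without it (limma adjusted p = 9.91e-85). Socs3, an inhibitor that binds gp130 and JAKs, was 6.24-fold lower in STAT3KO cells with IFNa and 3.98-fold lower without it (adjusted p = 1.91e-66). Cish, another inhibitor of the family, was lower by a log2 difference of -1.13 ± 0.24 (adjusted p = 1.47e-05). Stat2, a subunit of ISGF3, was 2.45-fold higher in STAT3KO cells with IFNa and at least 1.87-fold higher without it (limma adjusted p = 2.10e-07). Stat2, Irf9 and Socs1 were the 3 of the 17 that rose with IFNa, with mean log2 responses of 3.89, 3.41 and 1.13 (limma adjusted p = 6.15e-53, 6.06e-81 and 1.18e-08), and 0 fell. Stat2 was not detected in WT untreated, so its value is no bound. Without the intensity trend in the variance none of the 19656 probes was called for IFNa by limma (424 had an unadjusted p under 0.05), so these calls and those of Il6 and Il15ra were lost.

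**Figure D4:**
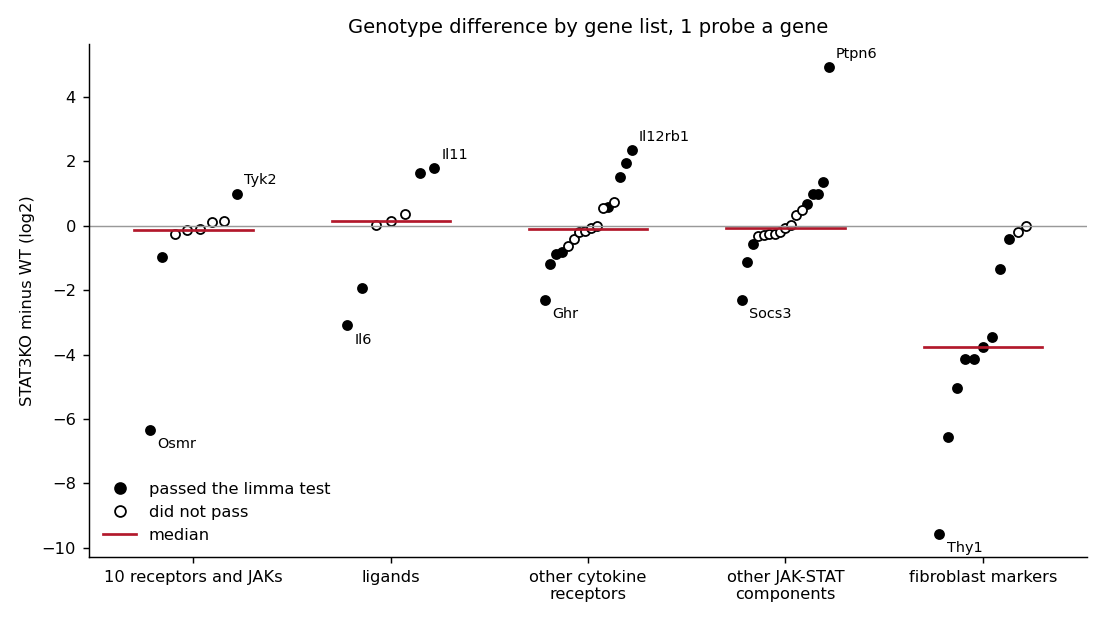
Mean STAT3KO minus WT difference on the log2 scale for the tested genes of 5 lists, 1 probe a gene, with filled points where the limma test was passed and a bar at the median of each list. Among the 10 receptor and kinase genes Osmr lies far below the rest at -6.33, and the fibroblast markers have a median of -3.75.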

How the data were processed

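Biotin-labelled cRNA made from total RNA was read on Illumina mouse bead arrays, and BeadStudio 3.2.3 is listed in the submitters' processing notes. The authors deposited linear intensities and, beside them, a detection score, which is a fraction between 0 and 1. For WT untreated the column was, per the file headers, normalized already (it equals the authors' normalized values, largest difference 0). How the authors normalized is not stated in the labels or headers. The number of arrays limits the precision.

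Background was corrected in limma 3.58.1 (R 4.3.3) by normexp from the detection p with offset 16, followed by quantile normalization and log2. Probes detected at p under 0.01 on at least 1 array were fitted on genotype and treatment by limma with an intensity-trended prior, and p-values were adjusted by Benjamini-Hochberg over 19656 probes. There is 1 residual degree of freedom and the prior degrees of freedom were infinite, so SE and p come wholly from probes of like brightness, with no spread between replicate samples in them. The fit was tested on simulated data. A fold written "at least" divides the brighter value by the dim probe's own value or, if that is higher, by the dimmest detected probe of the same array.

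Of 46632 probes, 29976 had 1 gene symbol, 10 several and 16646 none, with symbols updated through RefSeq (GRCm38.p6). The brightest probe stood for each gene in the lists. Members, lists and tests were chosen with earlier results of these data known. All member probes are described. In each other list up to 4 detected genes with the largest genotype difference and 4 with the largest IFNa response were to be named, plus Stat3, Il10rb and the 3 profiles nearest to Ifnar2. Vim, Twist1, Osm, Ifnz, Il6ra, Il4ra and the undetected ligands and markers were named outside that rule, after their values were seen. No protein or probe sequence was used here.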

Additional observations from a re-analysis of the deposited data

Results flagged for a closer look

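Among probes detected on all 4 arrays, the IFNa minus untreated values of the bright Jak2 probe and the dim Ifngr2 probe had opposite signs in the genotypes and differed by at least 1.5-fold, although 1 value of each pair lay near 0. For Jak2 the log2 value was -0.01 in STAT3KO and 0.64 in WT cells, a difference of -0.65. For Ifngr2 it was -0.70 in STAT3KO and 0.07 in WT cells, a difference of -0.77, and on the bright Ifngr2 probe the difference was -0.13. Neither difference could be tested, with 1 array a group. Ifngr1 (-0.14 in STAT3KO and 0.26 in WT cells) and Il6st (-0.03 in STAT3KO and 0.14 in WT cells) also had opposite signs, with smaller differences.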

How the results depend on the processing

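The alternatives were no background correction, offset 50, scaling to the 75th percentile, cyclic loess, the authors' normalized values, detection on all 4 arrays, no filter, 1 probe a gene, a detection p under 0.05, no intensity trend and a robust fit. The number of member probes past the genotype test was 3, and it was 2 with no background correction and with cyclic loess (Osmr and Ifnar2), 1 with scaling to the 75th percentile (Osmr) and 1 with detection on all 4 arrays (Ifnar2), a filter that leaves Osmr and Tyk2 untested. No probe passed the test of the IFNa response, and 1 did with cyclic loess (Osmr). At 2-fold, STAT3KO IFNa against STAT3KO untreated had 0 member probes, and 1 with scaling to the 75th percentile; WT IFNa against WT untreated had 0, and 3 with that scaling. STAT3KO untreated against WT untreated had 1, and 2 with that scaling, 2 with cyclic loess and 0 with detection on all 4 arrays. STAT3KO IFNa against WT IFNa had 4, but 1 with no background correction, 1 with offset 50, 1 with the authors' normalized values, 1 with detection on all 4 arrays and 2 with cyclic loess. Apart from that filter, which leaves fewer probes, the cause was not tested. The genotype difference of the second Jak2 probe, 0.05, turned to -0.017 with scaling to the 75th percentile. That scaling moved the median WT response of all tested probes to 0.20, against 0.02, and the median difference of responses to -0.29, against -0.08. The Osmr genotype difference ran from -6.37 to -4.21 over 10 alternatives, and its limma call held in all 10. Without the intensity trend 18.0% of all probes passed the genotype test, and 0 passed that of the IFNa response (limma; 424 had an unadjusted p under 0.05). No paired analysis was possible because each group has 1 array. Values near background, as for Tyk2 and the dim probes of Jak2 and Ifngr2, limit what these arrays can show.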
